A study of Mus musculus with 17 samples.

Results

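The transcripts described here come from 38 genes of G2 phase and mitosis, chosen by name and without the kinesin genes named Kif. All 38 were found under their names on the arrays, among 27618 gene names tested, with the brightest probe standing for each gene. Cdk1 was accepted under its older name Cdc2a as well. One of the 38, Gtse1, is a gene induced by p53 and was kept apart from the other 37. The RNA was from intestinal stem cells of LGR5-GFPki mice, in which green fluorescent protein is knocked in at Lgr5, the receptor gene that marks crypt base stem cells. All groups carried this knock-in, and cells were sorted by fluorescence into LGR5hi and LGR5lo at 3 h after the exposure. There were 4 arrays of LGR5hi cells from mice given 12 Gy of gamma rays, 4 of LGR5hi cells from non-irradiated mice, 4 of LGR5lo cells from irradiated mice and 5 of LGR5lo cells from non-irradiated mice. Each group held 2 arrays from females, and the rest were from males. The labels give no ages and do not say how many animals made up a sample, so p-values measure the spread between these samples only.

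Progress from G2 into mitosis is driven by CDK1 bound to a B-type cyclin. WEE1 holds this kinase inactive by phosphorylation, and the CDC25 phosphatases release it. Aurora kinases, the kinetochore and the spindle checkpoint then attach and align the chromosomes, and the anaphase-promoting complex with CDC20 ends mitosis by marking securin and the cyclins for destruction. Transcripts of most of these genes peak in G2 and mitosis, through promoters that hold CCAAT boxes and a cell cycle homology region (CHR) bound by the MuvB complexes. After DNA damage p53 induces the CDK inhibitor p21, and the DREAM form of the MuvB complex represses such promoters. In the crypt, LGR5hi cells are the cycling stem cells at its base.

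Values were log2 Cy3 signal relative to the 75th percentile of each array, and a level below always means this quantity. The share of spots above background was 58.9% to 73.9% on 15 of the arrays, and 95.6% on non-irradiated LGR5lo replicate 2, which stood apart. The header of non-irradiated LGR5lo replicate 4 gives a spike-in slope of 0, against 0.79 to 1.0 on the others. Non-irradiated LGR5hi replicate 1 had a damaged file and entered through rebuilt values without background flags. Lgr5, whose reporter the sort rests on, read 2.35 to 3.15 in irradiated LGR5hi cells and 3.99 to 4.70 in non-irradiated LGR5hi cells, against -0.63 to 0.26 in irradiated LGR5lo cells and 0.30 to 1.62 in non-irradiated LGR5lo cells. All 5 crypt stem cell markers examined were above background on all arrays with flags. The LGR5lo sort also held more signal of some other cell types. The summed level of 6 enteroendocrine markers was 8.76 to 9.48 in irradiated LGR5lo cells and 8.10 to 8.60 in non-irradiated LGR5lo cells, against 4.47 to 4.83 and 4.12 to 5.22 in the irradiated and non-irradiated LGR5hi cells. For the 4 goblet markers measured it was 10.4 to 10.9 and 9.95 to 11.3 in the irradiated and non-irradiated LGR5lo cells, against 7.57 to 8.12 and 7.55 to 8.58 in the LGR5hi cells of the same arms. These enteroendocrine and goblet markers were above background on all arrays with flags. The 5 tuft markers summed to 3.12 to 4.10 and 3.51 to 4.47 in the irradiated and non-irradiated LGR5lo cells, against 1.39 to 2.47 and 1.24 to 2.42 in the LGR5hi cells. The 3 measured stromal and endothelial markers summed to 2.61 to 3.25 and 1.66 to 1.93 in the irradiated and non-irradiated LGR5lo cells, against -0.86 to -0.59 and -1.47 to -0.92 in the LGR5hi cells. Of these 3, only 1 passed as lower in LGR5hi cells in each arm. Their median difference, LGR5hi minus LGR5lo, was -0.75 without irradiation. After irradiation it was -0.13, and 1 marker was higher in LGR5hi cells. The summed levels of the Paneth, enterocyte and leukocyte markers overlapped between the sorts in both arms. The part of other cell types in the LGR5lo results was not tested.

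The promoters of the genes are shown first, since the CHR and the CCAAT box are what this gene class is known for. RefSeq promoter windows (GRCm38.p6), from 250 bases before to 50 after a start site, were held for 31 of the 38 genes, in 34 windows. Aurkb, Ccna2, Cdc25c, Dlgap5, Foxm1, Tpx2 and Wee1 were not among them. The windows were searched on both strands for the CHR, TTTGAA, for the CCAAT box, CCAAT, and for the p53 decamer, the repeated unit of the p53 response element. A CHR below means the exact core TTTGAA, and variant cores are counted apart. Positions are counted from the start site, whose first base is 1. Below are 150 bases before to 30 after the start for 4 genes with a CHR near the start. Cdc25b, which fell strongly and has no TTTGAA in its window, and the upstream start of Gtse1 follow. Capitals mark TTTGAA and CCAAT, or their complements on the other strand. The windows are chr9:70421525-70421704 for Ccnb2, chr10:69352883-69353062 for Cdk1, chr4:118437314-118437493 for Cdc20 and chr1:189688057-189688236 for Cenpf, all on the minus strand, with chr2:131186798-131186977 for Cdc25b and chr15:85859557-85859736 for Gtse1 on the plus strand.
Ccnb2: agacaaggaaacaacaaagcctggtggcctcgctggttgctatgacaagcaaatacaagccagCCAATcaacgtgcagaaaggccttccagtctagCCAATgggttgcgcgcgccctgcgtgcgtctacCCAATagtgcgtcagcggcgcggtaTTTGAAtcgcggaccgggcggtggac
Cdk1: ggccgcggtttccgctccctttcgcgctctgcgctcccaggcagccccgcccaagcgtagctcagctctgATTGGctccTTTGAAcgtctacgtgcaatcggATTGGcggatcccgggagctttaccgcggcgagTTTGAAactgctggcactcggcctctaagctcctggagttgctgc
Cdc20: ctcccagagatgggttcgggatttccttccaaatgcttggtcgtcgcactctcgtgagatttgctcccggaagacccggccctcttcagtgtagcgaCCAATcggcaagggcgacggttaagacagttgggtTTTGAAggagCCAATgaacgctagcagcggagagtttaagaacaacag
Cenpf: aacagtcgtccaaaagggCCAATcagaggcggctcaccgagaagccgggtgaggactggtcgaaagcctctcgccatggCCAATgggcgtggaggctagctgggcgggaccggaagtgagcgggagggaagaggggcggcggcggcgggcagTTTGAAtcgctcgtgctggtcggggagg
Cdc25b: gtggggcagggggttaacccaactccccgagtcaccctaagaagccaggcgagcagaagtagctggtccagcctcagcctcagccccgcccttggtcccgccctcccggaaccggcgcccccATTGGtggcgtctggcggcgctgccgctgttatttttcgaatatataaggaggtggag
Gtse1: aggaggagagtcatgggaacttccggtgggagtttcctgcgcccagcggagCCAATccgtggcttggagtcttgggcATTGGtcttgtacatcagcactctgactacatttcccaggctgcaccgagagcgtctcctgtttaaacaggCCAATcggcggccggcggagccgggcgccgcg
The CHR began at base 5 in Ccnb2, at -71 and -15 in Cdk1, at -18 in Cdc20 and at 3 in Cenpf. The window of Ccnb2 holds another CHR at -167, before the bases shown. Gtse1 has 2 start sites in the table, and neither window holds a CHR. Its downstream window holds a p53 decamer that begins at base 10. The first 30 bases after that start, chr15:85859946-85859975 on the plus strand, are shown with the decamer in capitals.
Gtse1 downstream start: agcaagttgGGGCTTGCCTctgacttgcct

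A CHR stood in 21 of the 34 windows (61.8%), which belong to 19 genes, and in 17.9% of the 32851 windows of the whole table. With variant cores of the CHR counted as well, it was 24 windows (70.6%) of 22 genes, against 40.3% of all windows. Within 50 bases of the start it stood in 19 of the windows (55.9%), against 4.94% of all windows. CCAAT stood in 27 of the windows (79.4%) and in 37.4% of all windows. CHR and CCAAT stood together in 19 (55.9%), against 6.95% of all. The p53 decamer stood in 3 (8.82%), those of Birc5, Bub1b and Gtse1, and in 8.36% of all windows. These are counts of letters and not of bound sites. Among the 37 genes other than Gtse1, the 19 with a CHR had a median change after irradiation of -1.71 in LGR5hi cells, with a range from -3.79 to -0.76. The end at -3.79 is the fitted value of Cenpf, whose probe had no signal above background in irradiated LGR5hi cells. The 11 with a window but no TTTGAA had a median of -1.54 and a range from -2.93 to -0.60. Some of these 11 may hold a variant core, and they were not separated here. The ranges overlapped over most of their length, and Nusap1 and Cdc25b, among the larger falls, have no TTTGAA in the window.

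**Figure D1:**
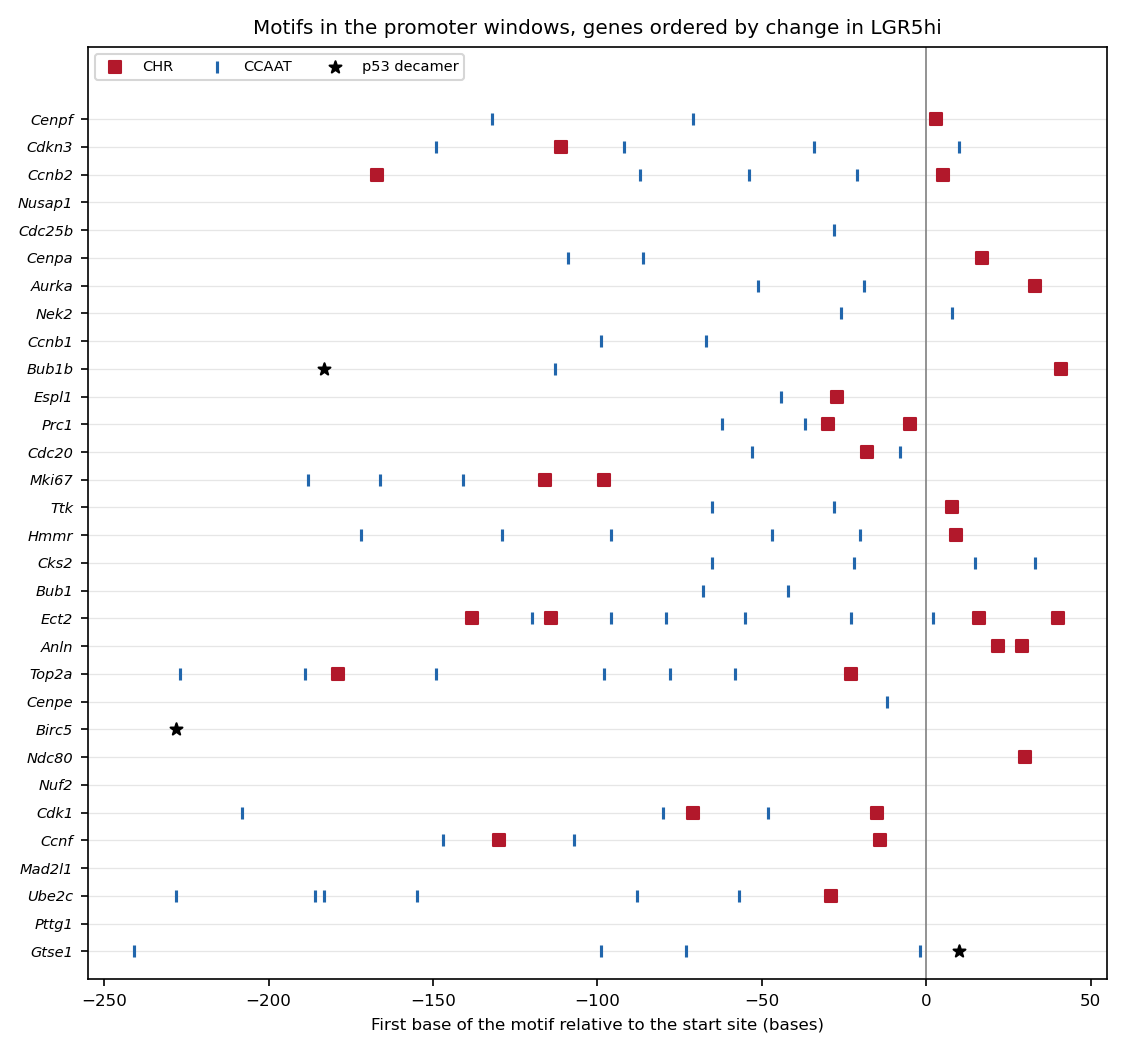
First base of each CHR, CCAAT box and p53 decamer in the promoter windows (horizontal axis, bases from the start site), with genes ordered down the page by their change after 12 Gy in LGR5hi cells, largest fall at the top. Both windows of Ect2, Prc1 and Gtse1 are drawn on 1 row. CHR marks gather within 50 bases of the start, where 19 of the 34 windows hold one, and the Gtse1 row has none.

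In LGR5hi cells, transcripts of the mitotic genes were lower at 3 h after 12 Gy across all roles. All 37 genes other than Gtse1 fell in limma's fit, and Gtse1 rose (limma, Benjamini-Hochberg over all gene names, adjusted p under 0.05). These 38 calls stand against 13.5% of all gene names called. Of all gene names, 7.31% fell and 6.18% rose, and 51.9% were below 0. The fall was at least 2-fold for 32 genes, against 3.57% of all gene names. The median change of the 37 was -1.67 on the log2 scale, with all genes at -0.02. Their changes ran from -3.79 for Cenpf, a fitted value for a probe without signal above background after irradiation, to -0.60 for Pttg1. The counts for LGR5hi cells include Cenpf, whose call carries no support of its own. For 36 of the genes all irradiated LGR5hi arrays were below all non-irradiated LGR5hi arrays, which was so for 13% of all gene names. Aurkb was the exception, and Gtse1 was above without overlap (10.8% of all). In sorted bulk samples, fewer cells in G2 and mitosis and less of each RNA per cell cannot be told apart.

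In LGR5lo cells 19 of the 37 genes fell and Gtse1 rose, against 3.02% and 4.49% of all gene names. The counts for LGR5lo cells include Cenpf, whose probe was above background on 1 of 4 irradiated LGR5lo arrays and whose call carries no support of its own. The fall was at least 2-fold for 12 (1.41% of all). The median change of the 37 was -0.84, with all genes at -0.13. All 37 changes were below 0, and 35 to 37 with an array left out, as were 60.2% of those of all gene names. Under median centring of the arrays, however, 30 of the 37 were below 0, and 34 when the median was taken over the kept probes only. The median of all genes moved to 0.40 and 0.12 under those scalings. The median of the 37 minus that of all genes was -0.71. The 3 scalings shift all genes of an array by the same amount, so this value cannot differ between them and is no check of the fall. In LGR5hi cells all 37 were below 0 under each of the 3 scalings. The number of genes past the threshold fell to 20 of 38 in LGR5hi cells and 4 of 38 in LGR5lo cells under median centring. For 21 genes all irradiated LGR5lo arrays were below all non-irradiated ones (4.87% of all gene names), and Gtse1 was above all (5.95%). Of the 38 genes, 31 had an unadjusted p under 0.05 (24.1% of all gene names).

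**Figure D2:**
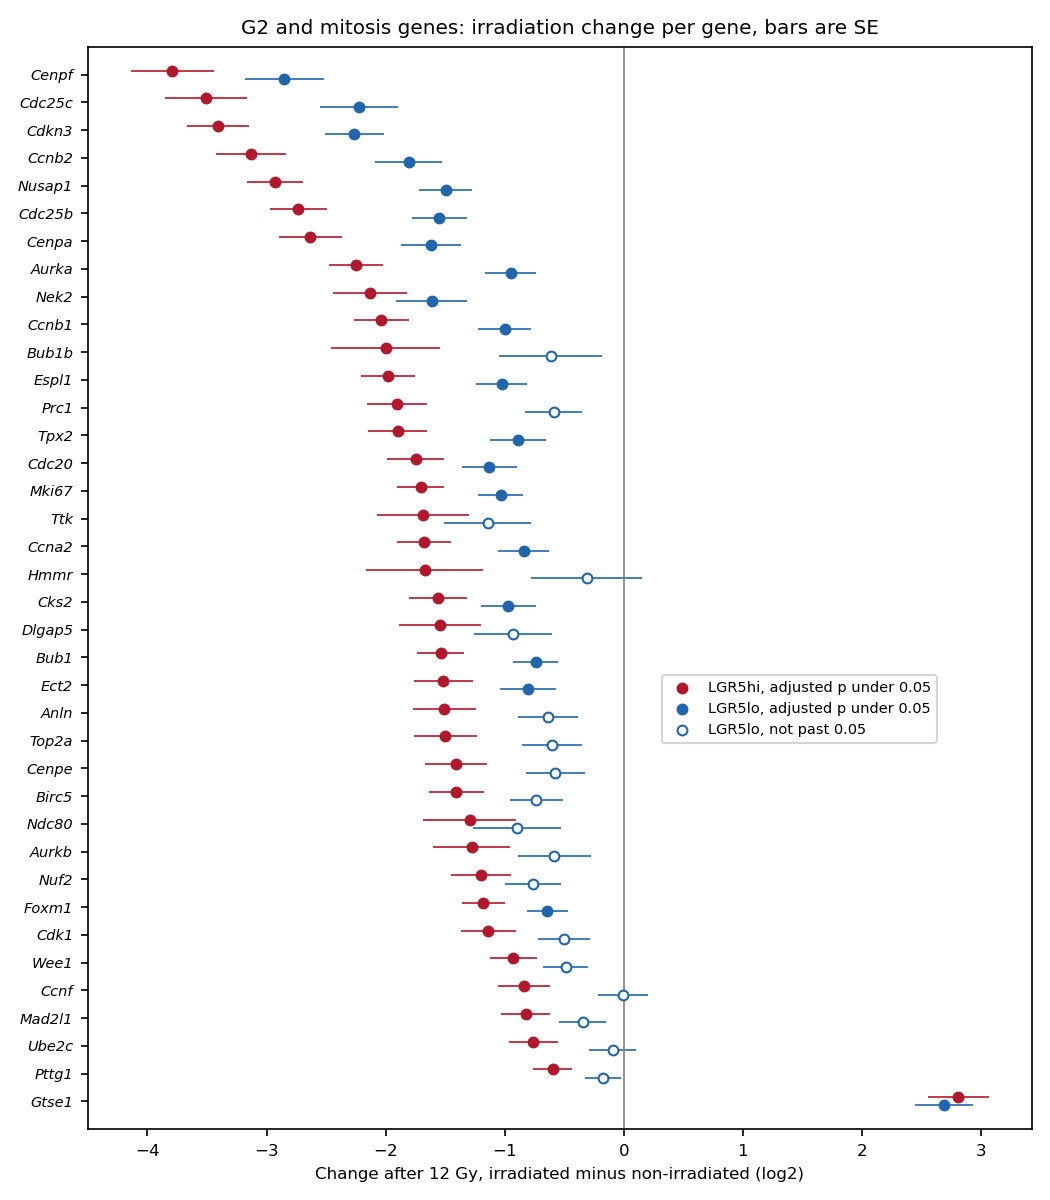
Change of each gene after 12 Gy (horizontal axis, irradiated minus non-irradiated, log2), in LGR5hi cells (red) and LGR5lo cells (blue), with genes ordered by the change in LGR5hi. Bars are standard errors of the limma fit, and open points did not pass an adjusted p of 0.05. Cenpf is at the top with -3.79 in LGR5hi cells, and Gtse1 alone lies to the right, at 2.81 and 2.69. The points and bars of Cenpf are fitted values of a probe mostly without signal above background after irradiation, and its calls carry no support of their own.

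Among the cyclins and regulators of CDK1, all 10 genes fell in LGR5hi cells and 7 of 10 in LGR5lo cells. Cdkn3, a phosphatase that acts on CDKs, had the smallest p of this group in both sorts. Cdkn3 (probe at chr14:47386895-47386954, mm9 in the file headers) read -1.79, -1.92, -2.03 and -1.54 on the irradiated LGR5hi arrays, against 1.88, 1.34, 1.93 and 1.20 on the non-irradiated LGR5hi arrays. It read -0.73, -1.24, -1.09 and -0.92 on the irradiated LGR5lo arrays, against 1.75, 1.42, 1.73, 0.83 and 0.61 on the non-irradiated LGR5lo arrays. All irradiated arrays lay below all non-irradiated ones in either sort, and the irradiated LGR5hi arrays were the lowest. Cdkn3 fell by 3.41 ± 0.26 on the log2 scale in LGR5hi cells (SE, adjusted p = 3.20e-07) and by 2.26 ± 0.24 in LGR5lo cells (adjusted p = 2.80e-05).

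Ccnb2 (probe at chr9:70255671-70255730, mm9), a B-type cyclin, was at 1.92, 1.75, 1.82 and 1.91 in irradiated LGR5hi cells, against 5.08, 4.62, 5.54 and 4.69 in non-irradiated LGR5hi cells. The LGR5lo levels of Ccnb2 were 2.75, 2.36, 2.64 and 2.45 after irradiation, against 4.88, 3.61, 5.20, 4.16 and 3.93 without. The irradiated values were closely spaced and the non-irradiated ones wide, with no overlap in either sort. Ccnb2 fell by 3.13 ± 0.30 in LGR5hi cells, an 8.77-fold fall, and by 1.81 ± 0.28 in LGR5lo cells, a 3.5-fold fall (adjusted p = 3.11e-06 and 0.000748). Ccnb1, the other main mitotic B cyclin, fell by 2.04 ± 0.23 and 1.0 ± 0.22. Ccna2, the cyclin of S and G2 phase, fell by 1.68 ± 0.23 and 0.84 ± 0.22. Ccnf, an F-box protein with a cyclin domain, fell by 0.84 ± 0.22 in LGR5hi cells. In LGR5lo cells the change of Ccnf had a 95% interval from -0.45 to 0.44. The difference between these changes of Ccnf was -0.83 ± 0.30 and did not pass (adjusted p = 0.63).

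The phosphatases that activate CDK1 were among the larger falls. Cdc25b (probe at chr2:131023911-131023970, mm9) read 0.27, -0.52, -0.27 and -0.02 on irradiated LGR5hi arrays, against 2.89, 2.26, 2.86 and 2.37 on non-irradiated LGR5hi arrays. In LGR5lo cells it read 1.07, 0.81, 1.0 and 0.77 after irradiation, against 2.73, 1.74, 2.73, 2.77 and 2.35 without. The non-irradiated groups of the sorts overlapped, and irradiated LGR5hi arrays were all below irradiated LGR5lo arrays. It fell by 2.73 ± 0.24 in LGR5hi cells (adjusted p = 1.63e-06) and 1.55 ± 0.23 in LGR5lo cells (adjusted p = 0.000469). Cdc25c, the other G2 phosphatase, fell by 3.51 ± 0.35 and 2.23 ± 0.33, and it was above background on 3 of 4 irradiated LGR5hi arrays. The size of its fall depended on the processing. Over the alternative fits the change of Cdc25c ran from -3.80 to -1.74 in LGR5hi cells and from -2.49 to -1.39 in LGR5lo cells. Cks2, a small subunit bound to CDKs, fell by 1.56 ± 0.24 and 0.97 ± 0.23. Cdk1 fell by 1.14 ± 0.23 in LGR5hi cells, while in LGR5lo cells its change was -0.50 ± 0.22 and did not pass (adjusted p = 0.18).

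Wee1, the kinase that opposes CDC25, was lower after irradiation in LGR5hi cells as well. Wee1 (probe at chr7:117286573-117286632, mm9) was at 1.46, 1.81, 1.53 and 1.43 in irradiated LGR5hi cells, against 2.48, 2.45, 2.67 and 2.34 in non-irradiated LGR5hi cells. The LGR5lo levels of Wee1 were 0.62, 0.71, 1.01 and 1.02 after irradiation, against 1.74, 0.94, 1.80, 1.01 and 1.14 without. The LGR5hi groups were apart, and the LGR5lo groups overlapped. The change was -0.93 ± 0.20 in LGR5hi cells (adjusted p = 0.00455) and -0.49 ± 0.19 in LGR5lo cells (adjusted p = 0.14).

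All 8 mitotic kinases and checkpoint genes fell in LGR5hi cells, and Aurka, Bub1 and Nek2 fell in LGR5lo cells. Aurka (probe at chr2:172181726-172181785, mm9), the centrosomal Aurora kinase, had the smallest p of the group in LGR5hi. It read 1.75, 1.32, 1.45 and 1.83 in irradiated LGR5hi cells, against 3.83, 3.62, 4.31 and 3.60 in non-irradiated LGR5hi cells. In LGR5lo cells Aurka read 2.43, 1.92, 2.44 and 2.31 after irradiation, against 3.59, 2.90, 3.70, 3.04 and 2.89 without. The arms did not overlap in either sort, and the irradiated LGR5hi arrays were again the lowest. Aurka fell by 2.25 ± 0.23 in LGR5hi cells (adjusted p = 5.47e-06) and by 0.95 ± 0.21 in LGR5lo cells (adjusted p = 0.0122).

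Nek2 (probe at chr1:193656343-193656402, mm9), a kinase that separates the centrosomes, had the smallest p of the group in LGR5lo. It read -1.42, -2.14, -1.14 and -0.74 in irradiated LGR5hi cells, against 0.72, 0.33, 1.47 and 0.58 in non-irradiated LGR5hi cells. On LGR5lo arrays Nek2 read -0.85, -1.58, -0.71 and -0.84 after irradiation, against 0.71, 0.21, 1.16, 0.63 and 0.39 without. The arms did not overlap in either sort, with replicate 2 the lowest irradiated array in each. Nek2 fell by 2.13 ± 0.31 in LGR5hi cells and by 1.61 ± 0.30 in LGR5lo cells (adjusted p = 0.000208 and 0.00299).

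Of the other kinases and checkpoint genes, Bub1 passed in both sorts. Bub1, a checkpoint kinase at the kinetochore, fell by 1.54 ± 0.20 in LGR5hi cells and 0.74 ± 0.19 in LGR5lo cells. Bub1b, which encodes the checkpoint protein BUBR1, fell by 2.0 ± 0.46 in LGR5hi cells and had a change of -0.61 ± 0.43 in LGR5lo cells that did not pass. Non-irradiated LGR5lo replicate 4 lay at -1.33 for Bub1b, where the other 4 arrays of that group lay between 0.61 and 1.70. Without this array, the one with a spike-in slope of 0, Bub1b fell by 1.09 in LGR5lo cells (adjusted p = 0.0144). Ttk, the checkpoint kinase MPS1, fell by 1.69 ± 0.38 in LGR5hi cells. In LGR5lo cells Ttk changed by -1.14 ± 0.36, a size of 2.21-fold that did not pass (adjusted p = 0.0715). Mad2l1, which encodes MAD2, fell by 0.83 ± 0.21 in LGR5hi cells. Birc5, the survivin subunit of the chromosomal passenger complex, fell by 1.40 ± 0.23, and Aurkb, the kinase of that complex, by 1.28 ± 0.32. In LGR5lo cells Mad2l1, Birc5 and Aurkb had changes of -0.34 ± 0.20, -0.73 ± 0.22 and -0.58 ± 0.31, none past the threshold. Birc5 also passed without non-irradiated LGR5lo replicate 4, at -0.86 (adjusted p = 0.0256). The difference between the sorts did not pass for any of these genes.

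All 7 kinetochore and chromosome genes fell in LGR5hi cells, and Cenpa, Cenpf and Mki67 fell in LGR5lo cells. Cenpf (probe at chr1:191464978-191465037, mm9), a large kinetochore protein, read -6.45, -5.98, -6.51 and -6.07 on irradiated LGR5hi arrays, against -2.52, -2.76, -2.23 and -2.33 on non-irradiated LGR5hi arrays. On LGR5lo arrays Cenpf read -5.60, -5.66, -5.94 and -6.51 after irradiation, against -2.97, -1.96, -2.72, -3.78 and -3.94 without. The arms were far apart in both sorts. The Cenpf probe was not well above background on any of the 4 irradiated LGR5hi arrays, and was above it on all 3 non-irradiated LGR5hi arrays with flags. With the lowest level among probes well above background taken as its ceiling, Cenpf was at least 6.44-fold lower in irradiated LGR5hi cells. In LGR5lo cells it was above background on 1 of 4 irradiated arrays and 5 of 5 non-irradiated arrays, so most of its irradiated LGR5lo levels were not above background, and no error or p is given for its change. Cenpf passed the filter of 4 arrays through the non-irradiated groups, so its calls carry no support of their own. Under a filter of 12 arrays Cenpf was not tested, and all 36 remaining genes other than Gtse1 fell in LGR5hi cells. With normexp background correction the fitted changes of Cenpf were -0.79 in LGR5hi cells and -1.01 in LGR5lo cells. The LGR5hi value is a smaller fall than the least fold above, which therefore holds for the main processing only.

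Cenpa, the centromeric histone, fell by 2.63 ± 0.26 in LGR5hi cells and by 1.62 ± 0.25 in LGR5lo cells. Mki67 (probe at chr7:142881591-142881650, mm9), which encodes the proliferation marker Ki-67, read 4.11, 4.22, 4.01 and 4.30 in irradiated LGR5hi cells, against 6.09, 5.69, 5.97 and 5.72 in non-irradiated LGR5hi cells. The LGR5lo levels of Mki67 were 4.38, 4.24, 4.27 and 4.41 after irradiation, against 5.76, 4.78, 5.72, 5.52 and 5.01 without. The groups of the 2 arms did not overlap in either sort, and the irradiated values of both sorts lay within 4.01 to 4.41. Mki67 fell by 1.71 ± 0.20 in LGR5hi cells and by 1.03 ± 0.19 in LGR5lo cells (adjusted p = 2.58e-05 and 0.00289). Cenpe, a motor protein of the kinetochore, fell by 1.41 ± 0.26 in LGR5hi cells. Top2a, the topoisomerase that untangles sister DNA, fell by 1.5 ± 0.26. Ndc80 and Nuf2, which together bind microtubules in the NDC80 complex, fell by 1.30 ± 0.39 and 1.20 ± 0.25. In LGR5lo cells Cenpe, Top2a, Ndc80 and Nuf2 had changes between -0.90 and -0.58, none past the threshold.

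All 7 spindle and cytokinesis genes fell in LGR5hi cells, and Nusap1, Tpx2 and Ect2 fell in LGR5lo cells. Nusap1 (probe at chr2:119475072-119475131, mm9), a microtubule bundling protein of the spindle, had the smallest p of the group in both sorts. It read -0.07, -0.27, -0.52 and 0.06 in irradiated LGR5hi cells, against 2.83, 2.34, 3.21 and 2.53 in non-irradiated LGR5hi cells. In LGR5lo cells Nusap1 read 0.90, 0.36, 0.61 and 0.45 after irradiation, against 2.35, 1.58, 2.50, 2.21 and 1.73 without. The arms were apart in both sorts, and irradiated LGR5hi arrays were all below irradiated LGR5lo arrays. Nusap1 fell by 2.93 ± 0.24 in LGR5hi cells and by 1.5 ± 0.22 in LGR5lo cells (adjusted p = 6.30e-07 and 0.000549).

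Tpx2, which activates Aurora A on the spindle, fell by 1.90 ± 0.25 in LGR5hi cells and 0.89 ± 0.24 in LGR5lo cells. Prc1, the bundler of the midzone, fell by 1.91 ± 0.25 in LGR5hi cells. Ect2, the exchange factor that activates RhoA for cytokinesis, fell by 1.52 ± 0.25 in LGR5hi cells. In LGR5lo cells Ect2 fell by 0.80 ± 0.24 at an adjusted p of 0.0499, and it did not pass in 14 of the 17 fits that each left out 1 array. Anln, the anillin scaffold of the contractile ring, fell by 1.51 ± 0.26 in LGR5hi cells, and Dlgap5, a spindle protein, by 1.55 ± 0.35. Hmmr, a hyaluronan receptor that also acts at the spindle, fell by 1.67 ± 0.49. For Hmmr irradiated LGR5hi replicate 4 lay below the rest of its group, at -0.15, and so did non-irradiated LGR5lo replicate 4, at -0.61. Without the second of these arrays the LGR5lo change of Hmmr was -0.81 and did not pass (adjusted p = 0.10), and that of Ect2 was -0.78 and no longer passed (adjusted p = 0.0764). In LGR5lo cells Prc1, Anln, Hmmr and Dlgap5 had changes from -0.93 to -0.31 that did not pass.

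Of the genes of anaphase and proteolysis, all 4 fell in LGR5hi cells, and Cdc20 and Espl1 fell in LGR5lo cells. Espl1 (probe at chr15:102153644-102153882, mm9) encodes separase, the protease that cuts cohesin. It read -0.53, -1.12, -0.85 and -0.59 in irradiated LGR5hi cells, against 1.33, 0.81, 1.57 and 1.12 in non-irradiated LGR5hi cells. In LGR5lo cells Espl1 read -0.03, -0.74, -0.56 and -0.48 after irradiation, against 0.65, 0.29, 1.12, 0.56 and 0.26 without. The arms did not overlap, although irradiated LGR5lo replicate 1 came close to the lowest non-irradiated LGR5lo array. Espl1 fell by 1.98 ± 0.23 in LGR5hi cells and by 1.03 ± 0.21 in LGR5lo cells (adjusted p = 1.93e-05 and 0.00730).

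Cdc20 (probe at chr4:118105534-118105593, mm9), the activator of the anaphase-promoting complex, read 3.01, 3.18, 3.01 and 2.89 in irradiated LGR5hi cells, against 4.85, 4.40, 5.24 and 4.58 in non-irradiated LGR5hi cells. On LGR5lo arrays Cdc20 read 3.21, 2.99, 3.16 and 2.91 after irradiation, against 4.61, 3.62, 4.82, 4.11 and 3.82 without. Irradiated values of the sorts lay side by side and below all non-irradiated values. Cdc20 fell by 1.75 ± 0.24 in LGR5hi cells and 1.13 ± 0.23 in LGR5lo cells (adjusted p = 0.000123 and 0.00625). Ube2c, the ubiquitin-conjugating enzyme of the complex, fell by 0.76 ± 0.21 in LGR5hi cells and had a change of -0.09 ± 0.20 in LGR5lo cells. Pttg1, the securin that holds separase back, had the smallest fall in LGR5hi cells, by 0.60 ± 0.16, and a change of -0.17 ± 0.15 in LGR5lo cells.

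Foxm1 (probe at chr6:128324783-128324842, mm9), the transcription factor that works with MuvB and B-MYB on late cell cycle promoters, was lower as well. It read 0.54, 0.16, 0.18 and 0.76 in irradiated LGR5hi cells, against 1.72, 1.41, 1.81 and 1.42 in non-irradiated LGR5hi cells. In LGR5lo cells Foxm1 read 0.96, 0.46, 0.56 and 0.68 after irradiation, against 1.52, 1.07, 1.53, 1.33 and 1.09 without. The arms were apart, narrowly so in LGR5lo. It fell by 1.18 ± 0.18 in LGR5hi cells and by 0.64 ± 0.17 in LGR5lo cells (adjusted p = 0.000287 and 0.0318).

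Gtse1 went the other way. It encodes a microtubule-bound protein of G2 and S phase that binds p53 and is itself a p53 target. Gtse1 (probe at chr15:85706887-85706946, mm9) read 2.92, 3.75, 3.31 and 3.22 in irradiated LGR5hi cells, against 0.51, 0.31, 0.91 and 0.24 in non-irradiated LGR5hi cells. In LGR5lo cells it read 2.29, 2.81, 2.78 and 2.54 after irradiation, against 0.18, -0.63, 0.57, -0.08 and -0.49 without. Every irradiated array was above every non-irradiated array of either sort. Gtse1 rose by 2.81 ± 0.26, or 7.01-fold, in LGR5hi cells (adjusted p = 2.27e-06) and by 2.69 ± 0.24, or 6.46-fold, in LGR5lo cells (adjusted p = 4.13e-06). The 2 changes differed by 0.12 ± 0.35, with a 95% interval from -0.64 to 0.87 (adjusted p = 0.92).

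**Figure D3:**
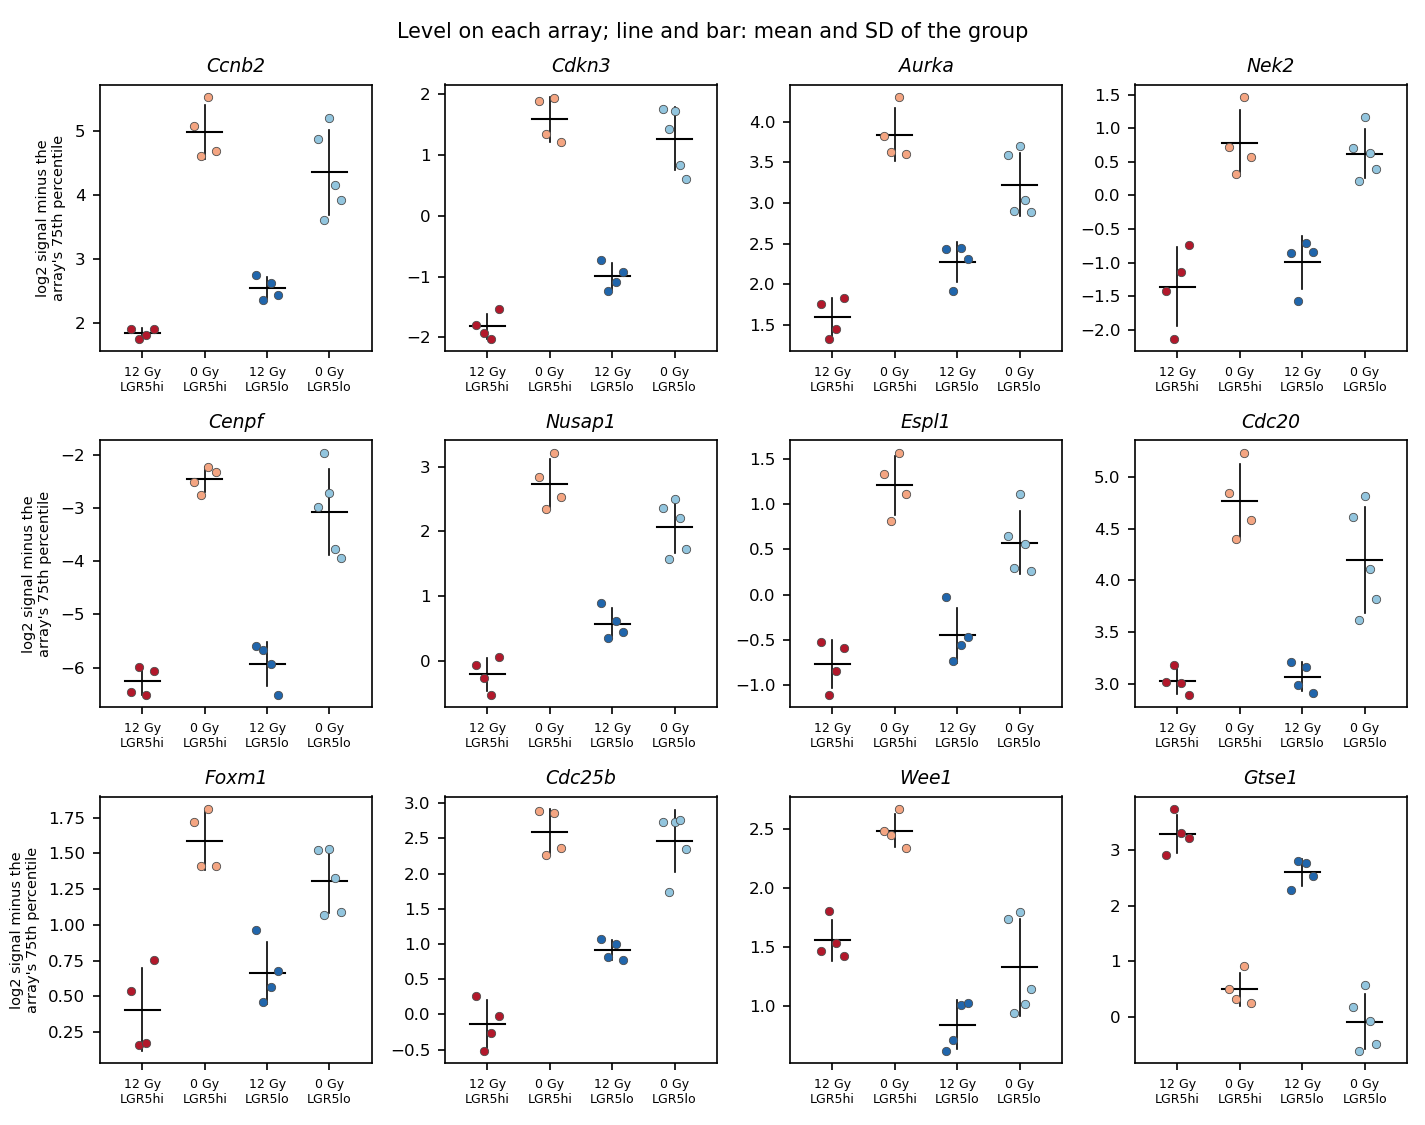
Level of 12 genes on each array (vertical axis, log2 signal relative to the 75th percentile of the array; each panel has its own scale), with groups in the order irradiated LGR5hi, non-irradiated LGR5hi, irradiated LGR5lo, non-irradiated LGR5lo. Points are arrays, lines are means and bars are SD (n = 4, 4, 4 and 5). Irradiated arrays lie below non-irradiated ones in 10 of the panels in both sorts, the LGR5lo groups of Wee1 overlap, and in the Gtse1 panel irradiated arrays lie above.

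The calls differed in how much they leaned on single arrays. In LGR5hi cells 31 of the 38 calls were kept in all 17 fits that left out 1 array. Ccnf, Aurkb, Mad2l1, Ndc80, Hmmr, Ube2c and Pttg1 each lost theirs in at least 1 such fit. In LGR5lo cells 14 of 20 calls were kept in all 17 fits, and Ccna2, Cks2, Bub1, Tpx2, Ect2 and Foxm1 lost theirs at least once. The direction stayed the same in all fits for every called gene. On slide 1 alone the median change of the 37 genes was -1.53 in LGR5hi cells and -0.81 in LGR5lo cells. On slide 2 alone it was -1.69 and -1.0.

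Set gene by gene, the change was lower in LGR5hi than in LGR5lo cells for all 37 genes, by 0.40 for Ndc80 up to 1.44 for Nusap1 on the log2 scale, and 45.1% of all gene names had a lower change in LGR5hi. The 37 include Cenpf, whose irradiated levels were mostly not above background, so its difference carries no support of its own. The order was the same for 36 of 37 under normexp, where Cenpf turned, for 36 with the mean of the kept probes, where Nuf2 turned, and for 36 on slide 1 alone, where Ndc80 turned. Dimmer probes of Nuf2, Mad2l1 and Pttg1 had differences of 0.77 ± 0.43, 0.25 ± 0.61 and 0.22 ± 0.39, opposite in sign to those of the brightest probes. The difference did not pass for any single gene. In limma's test of the difference of effects, 0 of 38 genes were called, as were 0.0398% of all gene names. At an unadjusted p under 0.05 there were 21 (6.79% of all gene names). The smallest adjusted p was that of Nusap1, at 0.22 for a difference of -1.44 ± 0.33. With arm and number as a random block, limma called 1 gene, Nusap1. With the number blocked inside each arm it called 0. Aurka followed, with -1.30 ± 0.31 (adjusted p = 0.24), then Prc1, with -1.32 ± 0.34 (adjusted p = 0.35). The changes of the 37 genes, Cenpf included, in the 2 sorts had a Pearson r of 0.93 over genes. Genes on the same arrays are not independent replicates, and this is given as a description only.

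Where the sorts stood in each arm shows in the levels. Without irradiation, all 38 genes were higher in LGR5hi than in LGR5lo cells, where 56.3% of all gene names were lower in LGR5hi. Wee1, Prc1, Ect2, Bub1 and Ube2c passed the test, 5 of 38, with 4.63% of all gene names higher in LGR5hi and 4.94% lower. Wee1 was 1.16 ± 0.19 higher in LGR5hi (adjusted p = 0.000844). The groups of Wee1 and Ect2 did not overlap, 2 of 38 genes (5.26%), a share near the 5.7% of all gene names. Prc1 was 0.92 ± 0.24 higher, Ect2 0.90 ± 0.24, Bub1 0.67 ± 0.19 and Ube2c 0.65 ± 0.20. With replicate number blocked inside each arm, an assumed pairing that the labels do not give, 10 genes passed. The share of all gene names called under this block is not given here. Under median centring Wee1 alone passed. The count also moved with single arrays, to 17 without non-irradiated LGR5lo replicate 3, 11 without replicate 1 and 3 each without replicates 2 and 4 of that group. It was 1 without replicate 5 of that group, and 1 without replicate 1 or 3 of non-irradiated LGR5hi.

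After irradiation 33 of the 38 genes were lower in LGR5hi than in LGR5lo cells, as were 45% of all gene names. Cdc25b passed as lower in LGR5hi, 1 of 38 genes (2.63%, against 4.11% of all gene names). Wee1 passed as higher, also 1 of 38 (2.63%, against 2.21% of all). These shares are near or below those of all gene names. Cdc25b was 1.05 ± 0.24 lower in LGR5hi cells (adjusted p = 0.0142) and Wee1 0.72 ± 0.20 higher (adjusted p = 0.0427). Once replicate number was blocked inside each arm, again as an assumed pairing, 9 genes passed. Ccnb2, Cdc25b, Cdc25c, Cdkn3, Aurka, Cenpa and Nusap1 were lower in LGR5hi cells, and Wee1 and Gtse1 were higher. The share of all gene names called under this block is not given here, so the count cannot be set against it. Under median centring 0 passed. Without irradiated LGR5lo replicate 1 or irradiated LGR5hi replicate 2, 0 passed, and Cdc25b alone passed without replicate 1, 2 or 4 of non-irradiated LGR5hi, 1 or 3 of irradiated LGR5hi, or 2, 3 or 4 of irradiated LGR5lo. These comparisons use the same arrays as those of irradiation and are not independent of them. For 33 of the 37 genes the group means ran in 1 order, with irradiated LGR5hi lowest, then irradiated LGR5lo, then non-irradiated LGR5lo, and non-irradiated LGR5hi highest. The counts of 33 include Cenpf, whose irradiated levels were mostly not above background.

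**Figure D4:**
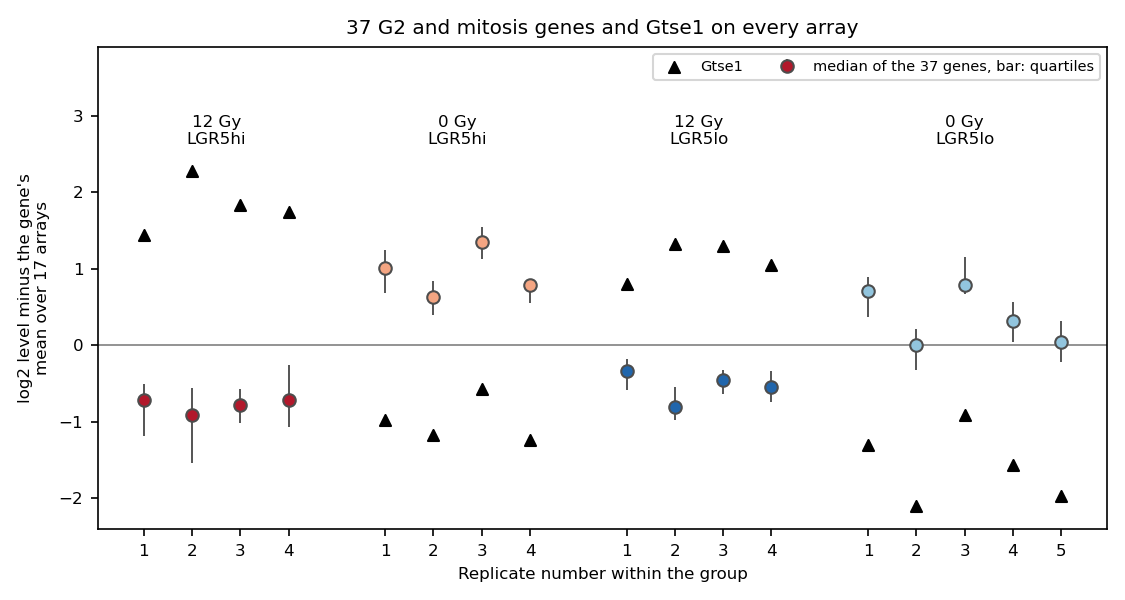
Median over the 37 genes of the level minus the gene's mean over 17 arrays (circles, bars span the quartiles), and the same quantity for Gtse1 (triangles), for each array by group and replicate number. The circles lie between -0.91 and -0.71 in irradiated LGR5hi cells, between 0.63 and 1.35 in non-irradiated LGR5hi cells, between -0.80 and -0.33 in irradiated LGR5lo cells and between 0.01 and 0.79 in non-irradiated LGR5lo cells.

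Across arrays the median of the 37 genes separated the arms in either sort. After subtraction of each gene's mean over all arrays, the median of the 37 was -0.91 to -0.71 on the irradiated LGR5hi arrays, against 0.63 to 1.35 on the non-irradiated LGR5hi arrays. It was -0.80 to -0.33 on the irradiated LGR5lo arrays, against 0.01 to 0.79 on the non-irradiated LGR5lo arrays. The non-irradiated LGR5lo arrays were the most uneven, with replicates 2 and 5 at 0.01 and 0.05 and replicates 1 and 3 at 0.71 and 0.79. On replicates 2 and 5 of this group, 18 and 17 of the 37 genes lay below their own mean. Replicate 2 is the array with an unusual share of spots above background, and replicate 5 was alone on its slide. Without replicate 2 the count in LGR5lo cells was 22 lower genes, and with replicate number as a block it was 26. For Gtse1 the same quantity was 1.44 to 2.28 on the irradiated LGR5hi arrays, against -1.24 to -0.57 on the non-irradiated LGR5hi arrays. It was 0.81 to 1.33 on the irradiated LGR5lo arrays, against -2.10 to -0.91 on the non-irradiated LGR5lo arrays.

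Other genes of the same processes are set against the 7.31% of all gene names that fell in LGR5hi cells and the 3.02% in LGR5lo cells. Of 13 further spindle and cytokinesis genes, 10 fell in LGR5hi cells (median -1.29) and 6 in LGR5lo cells (median -0.77). They include Aspm, a spindle pole protein, at -3.03 ± 0.29 and -1.82 ± 0.27, and Fam64a at -3.79 ± 0.36 and -3.55 ± 0.34. Of 28 further centromere and kinetochore genes measured, 17 fell in LGR5hi cells and 2 in LGR5lo cells, with Casc5, the kinetochore scaffold KNL1, at -1.83 ± 0.19 and -1.01 ± 0.18. Cenpt, a DNA-binding kinetochore protein, rose by 1.01 ± 0.16 and 1.19 ± 0.15. Of 8 condensin subunits 5 fell in LGR5hi cells and 1 in LGR5lo cells, Ncapd2 being the one in both. Of 13 cohesin genes 7 fell in LGR5hi cells and 1 in LGR5lo cells, where Sgol2, a shugoshin that protects cohesin at centromeres, changed by -2.32 ± 0.24 and -1.35 ± 0.23. Of 15 subunits and regulators of the anaphase-promoting complex, 3 fell in LGR5hi cells, among them Fbxo5 and Fzr1, and the median change was -0.32 in LGR5hi cells and -0.02 in LGR5lo cells.

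Among 8 G2 checkpoint kinases and relatives of WEE1, Plk1 and Mastl, which drive mitotic entry, fell in both sorts, and the rest, such as Chek1, did not pass. Plk1 fell by 2.51 ± 0.24 in LGR5hi cells and 1.25 ± 0.23 in LGR5lo cells. Of 11 genes of the MuvB, DREAM and B-MYB complexes, Rbl2 and Lin54 fell in LGR5hi cells, by 0.66 ± 0.18 and 0.61 ± 0.17, and Tfdp1 rose in LGR5lo cells, by 0.64 ± 0.16, where 7.31% of all gene names fell in LGR5hi cells and 4.49% rose in LGR5lo cells. Of 20 replication and S phase genes, 1 fell in LGR5hi cells, a share near the 7.31% of all gene names. It was Tk1, the thymidine kinase, by 1.49 ± 0.26. The median of these 20 was -0.27 in LGR5hi cells, against -1.67 for the 37 G2 and mitosis genes, and -0.05 in LGR5lo cells, against -0.84. In LGR5lo cells Mcm6 fell by 0.64 ± 0.17 and Rrm2 rose by 0.75 ± 0.22. Of 8 p53-inducible genes of G2 arrest, 7 rose in LGR5hi cells and 5 in LGR5lo cells, against 6.18% and 4.49% of all gene names. Cdkn1a, which encodes p21, rose by 4.91 ± 0.31 in LGR5hi cells and by 2.90 ± 0.30 in LGR5lo cells, and Ccng1 by 4.03 ± 0.18 and 3.87 ± 0.17. Mdm2, which encodes the ubiquitin ligase of p53, rose by 3.15 ± 0.29 and 2.95 ± 0.28.

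**Figure D5:**
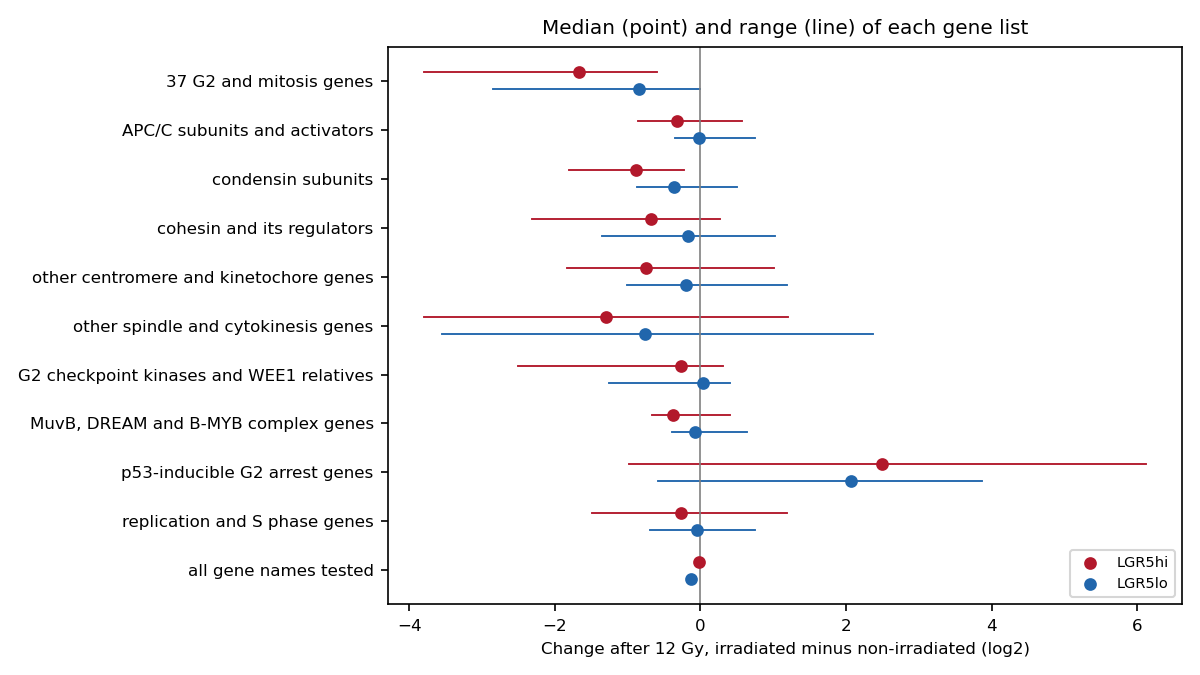
Median (point) and range (line) of the change after 12 Gy (horizontal axis, irradiated minus non-irradiated, log2) for the 37 genes and for neighbouring gene lists, in LGR5hi cells (red) and LGR5lo cells (blue), with the median of all gene names at the bottom. The 37 genes have medians of -1.67 and -0.84, the replication and S phase genes -0.27 and -0.05, and the p53-inducible G2 arrest genes 2.50 and 2.07.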

How the data were processed

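Total RNA was labelled with Cy3 and hybridised to 17 single-colour arrays. The deposited scanner files hold linear intensity per spot, background-subtracted and detrended by Agilent Feature Extraction 10.7.3.1 per the submitters' processing notes and the file headers, with no scaling between arrays, and 0 or 1 flags per spot (other values). The deposited series table holds log2 values relative to each array's 75th percentile and each probe's median, as worked out from the values since no source states it. One damaged scanner file, with 15329 of 62976 spots readable, was replaced by values rebuilt from that table. After removal of a constant, 100% of 13422 probes with readable spots were within 0.02 log2 of their rebuilt value, and the header's 75th percentile was 1.14 times the implied one, against 1.08 to 1.16 on whole arrays.

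Outlier spots were left out, replicate spots averaged and each array's 75th percentile subtracted from its log2 values. Probes well above background on at least 4 arrays were kept, 41453 of 55681, and the brightest kept probe of each gene name was tested. Group means over all 17 arrays were fitted by lmFit and eBayes of limma 3.58.1, under R 4.3.3. The p-values of all 27618 names were adjusted by Benjamini-Hochberg. Errors of changes are standard errors, and the number of arrays limits precision (median standard error 0.26 in LGR5hi, 0.25 in LGR5lo and 0.36 for their difference). The remaining steps and the plots used pandas 2.3.3, numpy 2.4.6 and matplotlib 3.10.9 under Python 3.11.15. The fit was tested on made-up data with 100 changed genes of each size in irradiated LGR5hi cells. It recovered 35% of changes of 1 and 72% of changes of 2 on the log2 scale, with 7 false calls. Many true changes of 2-fold can thus be missed. The least fold of a probe without signal uses the lowest level among probes well above background.

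The genes and lists were chosen with earlier results of these data known. All 38 genes are named, and array values are given for the genes of smallest p in each role group, Foxm1, Gtse1 and Wee1, and, chosen after their values were seen, Ccnb2, Cdc25b and Mki67. Of each further list up to 2 called genes a direction were named, plus Cdkn1a, Mdm2 and Lgr5; Chek1 was named after its value was seen. Ska2, Ska3, Muc2 and Defa24 were not found under those names and are not analysed here. Alternatives covered normalization, background correction, probe filters and choice, the series table, sex, blocks, array weights, arrays fitted and each array left out. Same-numbered LGR5hi and LGR5lo arrays of an arm correlated in their deviations from group means (r 0.12 to 0.46 over 8 pairs), so number was taken to pair them. Across arms it was not (r -0.10 to 0.22 over 8 pairs).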

Additional observations from a re-analysis of the deposited data

Results flagged for a closer look

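Of 152 groups of 4 or 5 arrays (38 genes in 4 groups), 7 (4.61%) held an array whose gap to its nearest neighbour was large for the range of its group by Dixon's criterion, and chance gives about 1 in 20. In irradiated LGR5hi cells Cks2 was at 0.41 on replicate 2, where the other arrays lay at 0.75 to 0.78. There Aurkb was at -2.24 on replicate 4, against -3.66 to -3.44, and Hmmr at -0.15 on the same array, against 0.77 to 0.93. In irradiated LGR5lo cells Bub1 was at -0.039 on replicate 1, against -0.31 to -0.28, Nek2 at -1.58 on replicate 2, against -0.85 to -0.71, and Ube2c at 3.65 on replicate 4, against 4.02 to 4.09. In non-irradiated LGR5lo cells Dlgap5 was at -0.21 on replicate 3, against -0.98 to -0.81.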

How the results depend on the processing

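Over 2582 recomputed changes of single genes after irradiation, direction and side of the threshold were kept in 2325, the threshold was lost in 216 and newly passed in 41, and 0 turned direction past it. The 38 calls in LGR5hi cells became 20 under median centring, 7 on slide 1 alone and 25 on slide 2 alone, and were 33 to 38 with an array left out. The 20 calls in LGR5lo cells became 4 under median centring, 9 under centring over kept probes, 9 with only the compared groups fitted, 0 on slide 1 alone and 4 on slide 2 alone, but 30 with array weights, 27 under quantile normalization and 24 with slide as a block, and were 14 to 23 with an array left out. The slide fits hold fewer arrays. The difference of effects had 0 calls, 0 to 0 with an array left out, and 1 with a random block. Between the sorts without irradiation the 5 calls became 1 under median centring, normexp, slide as a block, array weights, only the compared groups, and with both the unusual array and the rebuilt one dropped. They became 3 without a probe filter or with centring over kept probes, 14 with a random block, 0 on either slide alone, and 1 to 17 with an array left out. After irradiation the 2 calls between the sorts became 0 under either centring and on either slide, 1 without a probe filter, 4 with sex, 7 with a random block or only the compared groups, 9 with array weights, and 0 to 3 with an array left out. With number paired across all groups as a replicate block, calls were 38 in LGR5hi, 27 in LGR5lo, 0 for the difference, and 5 between the sorts in either arm. With the block inside each arm, which rests on the assumed pairing, the sorts differed in 10 genes without irradiation and 9 after it. Centring over kept probes, the slides alone, the fit without those arrays and the block inside each arm were chosen after seeing the data. Causes were not tested.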

Other observations

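Of the 38 genes, 12 had more than 1 probe past the filter, 28 probes in all. All 28 had changes below 0 after irradiation in both sorts, with 22 called in LGR5hi cells and 11 in LGR5lo cells when every kept probe was tested. Their changes ran from -2.71 to -0.14 in LGR5hi cells and from -2.07 to -0.01 in LGR5lo cells. Probes of 1 gene did not always give the same call: Cdk1, Ect2, Nuf2, Pttg1 and Mad2l1 each had a dimmer probe that did not pass in LGR5hi cells, the weakest being that of Nuf2. In LGR5lo cells dimmer probes of Birc5 passed at -0.87 and -1.04, and 1 of Dlgap5 at -1.22, where the brightest did not. Dimmer probes of Ccnb1 fell by 2.07 and 1.75 there, more than the brightest. Those of Tpx2 and Ect2 did not pass in LGR5lo cells, at -0.59 and -0.01. In limma's test of every kept probe the brightest probe of Ect2 did not pass there either (adjusted p = 0.0578). The size of the LGR5lo changes thus depended on the probe. None of the 12 is Gtse1.

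The crypt stem cell markers were lower after irradiation too, 4 of 5 in each sort, against 7.31% of all gene names in LGR5hi cells and 3.02% in LGR5lo cells, with medians of -0.99 in LGR5hi cells and -1.01 in LGR5lo cells. Lgr5 fell by 1.53 ± 0.29 in LGR5hi cells (adjusted p = 0.00188) and by 1.27 ± 0.28 in LGR5lo cells (adjusted p = 0.00963). The part of a shift in the sorted population in the fall of the G2 and mitosis genes was not tested.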
